A study of Homo sapiens with 15 samples.

Results

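The 10 genes described here encode core parts of the G1 cell cycle machinery. They are the D-type cyclins CCND1 and CCND3, the E-type cyclins CCNE1 and CCNE2, the kinases CDK4 and CDK6, and the kinase inhibitors CDKN1A, CDKN1B, CDKN1C and CDKN2C. They were taken by symbol from a table of 18858 genes, all 10 had a row, and no filter on low values removed any. Their response to loss of YAP and TAZ, the transcriptional co-regulators of the Hippo pathway, was measured in RNA of MDA-MB-231, an established human triple-negative breast cancer line with mesenchymal features.

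Untransfected cells formed the Control group. The transfected groups received control siRNA that targets no gene (siControl), siRNA to YAP1 (siYAP), siRNA to WWTR1, which encodes TAZ (siTAZ), or the YAP1 and WWTR1 siRNAs together (siYAP+TAZ). The knockdown lasted 48 h in the 4 transfected groups, and the cells then spent 5 to 6 h on gelatin before RNA was taken. Each of the 5 groups had 3 libraries, each with its own number. Control holds numbers 16, 21, 26, siControl holds 17, 22, 27, siYAP holds 18, 23, 28, siTAZ holds 19, 24, 29, and siYAP+TAZ holds 20, 25, 30. Total counts per library ranged from 18696737 to 30107312, with a median of 22902846. The experiment was repeated independently, but its sources do not assign libraries to repeats, so the p-values measure the spread between these libraries. Because siYAP+TAZ cells received both siRNAs, a larger total amount of siRNA and the loss of both targets cannot be told apart.

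Entry into the cell cycle is controlled in G1. D-type cyclins bind CDK4 and CDK6, E-type cyclins bind CDK2, and both kinds of complex phosphorylate the RB proteins, which releases E2F factors that transcribe the genes of S phase. Inhibitors of the CIP/KIP family (CDKN1A, CDKN1B and CDKN1C, also called p21, p27 and p57) bind cyclin-CDK complexes, and inhibitors of the INK4 family, such as CDKN2C (p18), bind CDK4 and CDK6. YAP and TAZ act mainly with TEAD factors on DNA and are known for promoting proliferation in many epithelial cancers.

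The siRNA targets were examined first. Normalized counts below are read counts divided by the TMM-scaled library size relative to the mean library. YAP1 stood at 4431, 4333 and 4202 normalized counts in the siControl libraries 17, 22 and 27. In the siYAP libraries 18, 23 and 28 it stood at 1013, 2764 and 761, or 23.4%, 64.0% and 17.6% relative to the mean of siControl. All siYAP libraries lay below all siControl libraries, but library 23 kept far more YAP1 RNA than the others. In siYAP+TAZ, YAP1 stood at 2240, 2202 and 1796 normalized counts, or 51.8%, 51.0% and 41.5% relative to that mean. WWTR1 stood at 1995, 1850 and 1579 normalized counts in siControl and at 828, 254 and 521 in siTAZ, with the lowest value in library 24. In siYAP+TAZ it stood at 1133, 1123 and 1284 normalized counts, below every siControl library and above every siTAZ library. By edgeR's quasi-likelihood test with Benjamini-Hochberg adjustment over all 18858 genes, the source of every adjusted p given here, WWTR1 fell in siTAZ, with a log2 fold change of -1.74 (SE 0.31, adjusted p = 0.0187). This call was lost without siControl library 17 (adjusted p = 0.0667) or 22 (0.0734), without siTAZ library 29 (0.0712) and in a fit of those groups alone (0.172), while the log2 fold change stayed at -1.42 or lower. The other target values did not pass an adjusted p of 0.05, the limit at which a gene is called here. YAP1 differed by -1.51 (SE 0.37, adjusted p = 0.0992, or 0.0392 with a block for runs of library numbers, described below) in siYAP and by -1.06 (SE 0.37, adjusted p = 0.0723) in siYAP+TAZ, both past the limit in DESeq2 (0.00942 and 0.0381), limma-voom (0.00970 and 0.0125) and without robust estimation (0.0233 and 0.0191), the former also without siYAP library 23 (3.29e-08) and the latter in a fit of the groups compared alone (2.13e-05). WWTR1 differed by -0.62 (SE 0.30, adjusted p = 0.199, or 0.00102 in a fit of the groups compared alone) in siYAP+TAZ. Each targeted transcript was thus lower in all libraries that received its siRNA, and the residual RNA in siYAP+TAZ was higher than in 2 of the 3 siYAP libraries for YAP1 and in all 3 siTAZ libraries for WWTR1.

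Known target genes of YAP and TAZ were examined next. Of 8 such genes (CCN1, CCN2, ANKRD1, AMOTL2, AJUBA, LATS2, AXL and TGFB2), the test called 7 lower in siYAP+TAZ, against 2 in siYAP (5 with the block) and 1 in siTAZ. Without single libraries these counts were 6 to 7, 1 to 2 and 0 to 3, and in other settings 7 to 8, 2 to 4 and 1 to 3. In siTAZ the count also differed with the block (given in the part on processing). Their median log2 fold change was -0.91, -0.53 and -0.47, while the median of all genes rounded to 0.00 in each comparison. CCN1, which encodes a matricellular protein, fell by 1.17 on the log2 scale (SE 0.12, adjusted p = 8.37e-06) in siYAP+TAZ, and ANKRD1 fell by 1.36 (adjusted p = 0.0233), a call lost without siControl library 17 (0.0688) or 22 (0.0706) and without siYAP+TAZ library 20 (0.0585), 25 (0.0541) or 30 (0.0836). AMOTL2 fell by 0.84, AXL by 0.51 and AJUBA by 0.70. The mesenchymal marker VIM stood at 28898 ± 483 normalized counts (SD, n = 3) in siControl, CD44 at 20818 ± 1642 and the keratin gene KRT18 at 6184 ± 234. The other line markers AXL, CAV1 and TFPI2 were also detected in every library, and CAV1 fell by 0.35 on the log2 scale in siYAP+TAZ (adjusted p = 0.00650). PGR had at most 7 reads in any library. ESR1, CDH1, CDKN2A and CDKN2B were not analysed here. Among markers of other cell types, PTPRC had at most 6 reads in any library and MITF stood at 558 ± 218 normalized counts in siControl. CD3E, ALB, MLANA and CDH5 likewise had no row. In siYAP+TAZ the log2 fold change of MITF lay between -1.03 and -0.47 over 15 settings other than the block, without a call. With the block, 1 of the markers of other cell types was called lower there. PECAM1, an adhesion molecule of endothelium, stood at 14.1 ± 4.9 normalized counts in siControl and 118 ± 47 in siYAP+TAZ (log2 fold change 3.03). The part of these marker changes in the results below was not tested.

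In the combined knockdown 4 of the 10 genes were called. CDKN1A rose, and CCNE2, CCND1 and CDK6 fell. The share called among all genes was 18.4%, with 9.97% called higher and 8.39% called lower, so 1 gene higher and 3 lower stood against those backgrounds. Without single libraries 1 to 2 of the 10 were called higher and 1 to 2 lower. CCND1 and CDK6 were called in none of these 6 fits. In a fit with a block for each run of library numbers (16 to 20, 21 to 25 and 26 to 30), 8 of the 10 were called, 3 higher and 5 lower, against 28.6% of all genes. The block's values are given where they change the call of a gene whose test is printed or move a count of calls by over 1.5 times, in comparisons without siTAZ. They are also given for the calls of CCND1 and CDK6. Among the 15307 genes kept by the filterByExpr filter of edgeR, 23.7% were called, a setting chosen after seeing the data. The groups did not overlap for 8 of the 10 genes, against 36.4% of all genes. None of the 10 passed the fold criterion of the study's methods, a log2 fold change of 1 or more in either direction beside the adjusted p, which 3.46% of all genes passed. CDKN1A passed it with library sizes unscaled (log2 fold change 1.01), with Control in place of siControl (1.01) and without siYAP+TAZ library 25 (1.01) or siControl library 27 (1.11). In siYAP only CDK6 was called, with and without the block, against a background of 0.933% (6.1% with the block). In siTAZ none was called, against 2.03%, although 3 of the 10 and 3023 of all 18858 genes had an unadjusted p under 0.05, DESeq2 called 1 of them (CDKN1A) and limma-voom none. The comparison of siControl with Control addresses the transfection itself. Between siControl and Control edgeR called none of the 10 and 0% of all genes (0.0053% with the block), none of the 10 had an unadjusted p under 0.05, DESeq2 and limma-voom called none, and the log2 fold changes of the 10 genes lay between -0.06 and 0.11. At an unadjusted p under 0.05, 398 of all genes differed between siControl and Control. In these bulk RNA data, fewer cells in a given phase and less RNA per cell cannot be told apart.

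**Figure D1:**
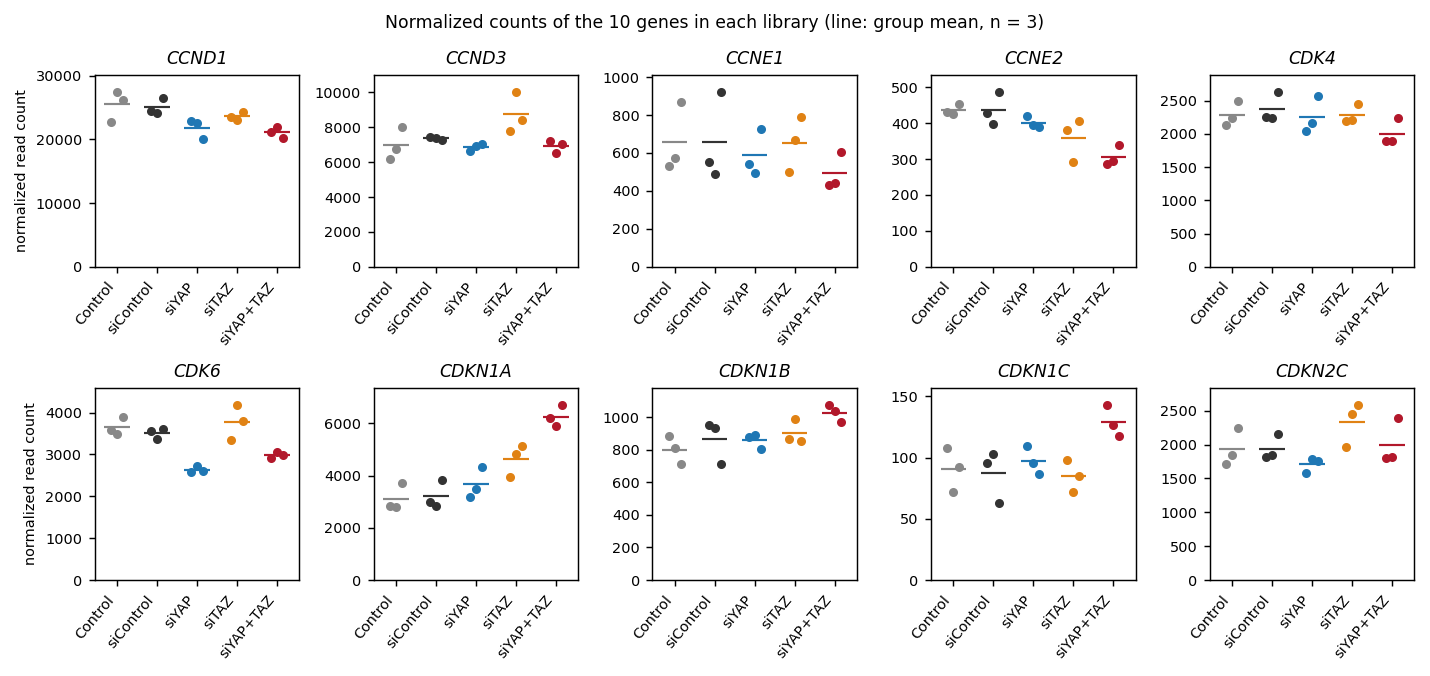
Each panel plots the normalized read count of a gene (vertical axis, from 0) in the 3 libraries of each group, with the group mean as a line. CDKN1A in siYAP+TAZ lies between 5897 and 6695, above every other library, and CDK6 in siYAP lies between 2580 and 2712, below every other library.

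CDKN1A, the CIP/KIP inhibitor p21, had the largest response of the 10 genes. Control libraries held 2823, 2809 and 3731 normalized counts of CDKN1A, and siControl libraries 2978, 2823 and 3827. The siYAP libraries held 3185, 3490 and 4320, the siTAZ libraries 3945, 4812 and 5138, and the siYAP+TAZ libraries 6206, 5897 and 6695. All siYAP+TAZ libraries lay above all other libraries, siTAZ lay above siControl without overlap, and siYAP overlapped with siControl and with siTAZ. Against siControl the log2 fold change was 0.97 (SE 0.15, 95% confidence interval 0.65 to 1.28, adjusted p = 0.000362) in siYAP+TAZ, a 1.95-fold higher level. The corresponding values were 0.53 (SE 0.15, interval 0.22 to 0.84, adjusted p = 0.0777) in siTAZ and 0.19 (SE 0.15, interval -0.12 to 0.50, adjusted p = 0.682) in siYAP. Without single libraries the siYAP value lay between 0.057 and 0.34 and was not called. The rise in siYAP+TAZ was called without each library in turn. The siTAZ value passed the limit without siTAZ library 19 (adjusted p = 0.0290) or siControl library 27 (0.0342), with library sizes unscaled (0.0399), with Control in place of siControl (0.0471) and in DESeq2 (0.0167). Its adjusted p ranged up to 0.310 without siTAZ library 24. The block for comparisons with siTAZ is left to the part on processing, where it also called this gene.

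The promoter of CDKN1A is shown because this gene carried the largest change, and YAP and TAZ act through DNA-bound factors. The 250 bases before an annotated start, at chr6:36678464-36678713 on the plus strand of GRCh38.p14 (from RefSeq), read as follows, with the GC box letters GGGCGG in capitals.
CDKN1A: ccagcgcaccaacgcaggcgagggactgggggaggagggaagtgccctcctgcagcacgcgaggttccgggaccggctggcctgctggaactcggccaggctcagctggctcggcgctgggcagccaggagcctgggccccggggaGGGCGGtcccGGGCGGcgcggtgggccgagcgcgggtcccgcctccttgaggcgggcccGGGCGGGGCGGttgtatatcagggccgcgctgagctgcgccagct
These letters occur 4 times, beginning 104, 94, 45 and 40 bases before the start, and the last 2 matches overlap by 1 base. The same 250-base windows were searched on both strands for CATTCC, the core that TEAD factors recognise, for TTTNNCGC, a form of the E2F motif, for the GC box GGGCGG and for the TATA box TATAAA. Of 34943 promoter windows, 11.9% held the TEAD letters, 5.89% the E2F letters, 42.5% the GC box and 10.8% the TATA box. Of the 10 genes, 7 had an entry in the promoter table, with 12 windows. CCND1, CCNE2 and CDKN1C had none, so their promoters were not searched. The GC box was found in 9 of the 12 windows, the TEAD letters in 3 (of CCND3 and CDKN2C), and the E2F and TATA letters in none.

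The other inhibitors differed less. CDKN1B (p27) stood at 952, 933 and 710 normalized counts in siControl and 1073, 1037 and 970 in siYAP+TAZ, so the groups did not overlap, but the log2 fold change of 0.24 (SE 0.11, interval 0.02 to 0.47) was not called (adjusted p = 0.121, or 0.0109 with the block and 0.0240 against Control). Without single libraries, each time without the block, this value lay between 0.12 and 0.33 (adjusted p from 0.0801 to 0.461). CDKN1C (p57) was the least abundant of the 10 genes, with 59 to 143 reads per library. It stood at 95.3, 103 and 63.3 normalized counts in siControl and 143, 127 and 117 in siYAP+TAZ, again without overlap. Its log2 fold change of 0.56 (SE 0.19, interval 0.15 to 0.96) just missed the limit (adjusted p = 0.0524, or 0.00690 with the block). It passed in DESeq2 (0.0354), limma-voom (0.0475), with each stricter filter (0.0441 and 0.0440), with each other scaling (0.0477 and 0.0458) and without siControl library 22 (0.0460), and reached 0.210 without siControl library 27. In siYAP and siTAZ the log2 fold changes of CDKN1B and CDKN1C lay between -0.04 and 0.15, and none was called. CDKN2C, the INK4 inhibitor p18, stood at 1817, 1847 and 2163 normalized counts in siControl, 1961, 2449 and 2581 in siTAZ and 1586, 1788 and 1756 in siYAP. Its log2 fold changes were 0.26 (SE 0.13, adjusted p = 0.336) in siTAZ, -0.18 (SE 0.13, adjusted p = 0.641) in siYAP and 0.04 (SE 0.13, adjusted p = 0.856) in siYAP+TAZ. The siYAP value lay between -0.22 and -0.10 without single libraries. CDKN2D, the INK4 inhibitor p19, had a log2 fold change of 0.11 in siYAP+TAZ (adjusted p = 0.427).

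Among the cyclins, CCNE2 fell most clearly. Cyclin E2 activates CDK2 at the passage from G1 to S phase. The siControl libraries held 429, 397 and 487 normalized counts of CCNE2 and the siYAP+TAZ libraries 287, 294 and 340, and every siYAP+TAZ library lay below every siControl library. The log2 fold change was -0.51 (SE 0.12, interval -0.75 to -0.26, adjusted p = 0.00510), a level 0.703 times that of siControl, and it was called without each library in turn. It stood at 421, 394 and 389 normalized counts in siYAP (log2 fold change -0.12, adjusted p = 0.766) and at 380, 291 and 407 in siTAZ (log2 fold change -0.28, adjusted p = 0.233), and both groups overlapped with siControl. Without single libraries these log2 fold changes lay between -0.19 and -0.039 in siYAP and between -0.38 and -0.15 in siTAZ. CCNE1, the other E-type cyclin, stood at 555, 491 and 922 normalized counts in siControl and at 430, 440 and 607 in siYAP+TAZ, and the log2 fold change was -0.40 (SE 0.28, interval -1.02 to 0.21, adjusted p = 0.378, or 0.00307 with the block). Without single libraries, each time without the block, it lay between -0.58 and -0.083, the latter without siControl library 27, with adjusted p from 0.240 to 0.878. In each of the 5 groups the highest CCNE1 value was that of the library numbered 26 to 30, with 868 in Control, 725 in siYAP and 791 in siTAZ. Whether these 5 libraries share an experiment is not given in the labels.

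CCND1, which encodes cyclin D1, was the most abundant of the 10 genes, with normalized counts of 24516, 24126 and 26445 in siControl. It stood at 22922, 22578 and 20003 in siYAP, 23543, 23081 and 24359 in siTAZ, and 21199, 21874 and 20215 in siYAP+TAZ. The siYAP and siYAP+TAZ libraries all lay below siControl. The decrease in siYAP+TAZ was small, with a log2 fold change of -0.25 (SE 0.079, interval -0.41 to -0.08, adjusted p = 0.0349), and the siYAP value of -0.20 (SE 0.079, adjusted p = 0.302) was not called. The CCND1 call in siYAP+TAZ did not hold when any 1 of the 6 libraries compared was left out (adjusted p from 0.0527 to 0.132), nor with library sizes unscaled (0.0693). These fits had no block. With the block and all libraries the adjusted p was 0.00671. CCND3, the gene of cyclin D3, stood at 7471, 7408 and 7256 normalized counts in siControl, 7800, 10025 and 8427 in siTAZ and 7218, 6553 and 7052 in siYAP+TAZ. Against siControl its log2 fold change was 0.25 (SE 0.094, adjusted p = 0.188) in siTAZ, with the highest value in library 24, and -0.09 (SE 0.094, adjusted p = 0.580) in siYAP+TAZ. Without single libraries these log2 fold changes lay between 0.14 and 0.32 in siTAZ and between -0.12 and -0.044 in siYAP+TAZ. CCND2, the third D-type cyclin, stood at 5.08 ± 2.5 normalized counts per kilobase in siControl, against 5906 ± 293 for CCND1.

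CDK6 fell in siYAP and in siYAP+TAZ, and it differed between siYAP and siTAZ (tested below). CDK6, with CDK4, is the kinase partner of the D-type cyclins. Control libraries held 3586, 3488 and 3894 normalized counts of CDK6, and siControl libraries 3562, 3360 and 3597. The siYAP libraries held 2580, 2712 and 2612, the siTAZ libraries 3338, 4174 and 3800, and the siYAP+TAZ libraries 2911, 3064 and 2992. All siYAP libraries lay below all others, and the siYAP+TAZ libraries lay between siYAP and the remaining groups, without overlap on either side. Against siControl the log2 fold change was -0.41 (SE 0.076, interval -0.57 to -0.25, adjusted p = 0.0128) in siYAP, -0.23 (SE 0.076, interval -0.39 to -0.07, adjusted p = 0.0420) in siYAP+TAZ and 0.10 (SE 0.076, interval -0.06 to 0.26, adjusted p = 0.553) in siTAZ. Both calls depended on single libraries in the fits below, which had no block. With the block and all libraries the adjusted p was 0.000177 in siYAP and 0.00743 in siYAP+TAZ. The siYAP call was lost without siControl library 17 (adjusted p = 0.0735) or 27 (0.0556) and without siYAP library 18 (0.0689) or 28 (0.0702), with log2 fold changes from -0.44 to -0.39 over the 6 such fits. The siYAP+TAZ call was lost without any 1 of the 6 libraries (adjusted p from 0.0583 to 0.129), with DESeq2 size factors (0.0506) and with library sizes unscaled (0.0841). The siYAP library 23, which kept most YAP1 RNA, lay at 77.4% of the siControl mean for CDK6 and the other siYAP libraries at 73.6% and 74.5%. CDK4 stood at 2249, 2240 and 2633 normalized counts in siControl and 1895, 1888 and 2235 in siYAP+TAZ, below every siControl library. Its log2 fold change was -0.24 (SE 0.098, interval -0.45 to -0.04, adjusted p = 0.0982, or 0.00163 with the block), and it was called only without siYAP+TAZ library 30 (adjusted p = 0.0447) among the 6 fits without a library. In siYAP and siTAZ its log2 fold changes were -0.07 and -0.05. CDK2, the partner of the E-type cyclins, fell by 0.30 on the log2 scale in siYAP+TAZ (adjusted p = 0.00671) and differed by -0.01 and -0.06 in siYAP and siTAZ (adjusted p = 0.981 and 0.753).

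The promoter of CDK6 is shown as that of the member lowered most by siYAP. The 250 bases before its outermost annotated start, at chr7:92836574-92836823 on the minus strand of GRCh38.p14 (from RefSeq), held the GC box 3 times, beginning 105, 85 and 62 bases before the start. The matches to GGGCGG or its reverse complement CCGCCC are in capitals.
CDK6: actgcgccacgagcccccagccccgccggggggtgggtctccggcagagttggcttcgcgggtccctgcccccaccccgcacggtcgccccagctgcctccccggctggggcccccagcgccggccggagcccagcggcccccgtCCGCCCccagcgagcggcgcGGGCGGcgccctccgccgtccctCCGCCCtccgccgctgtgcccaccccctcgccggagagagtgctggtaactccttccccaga

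**Figure D2:**
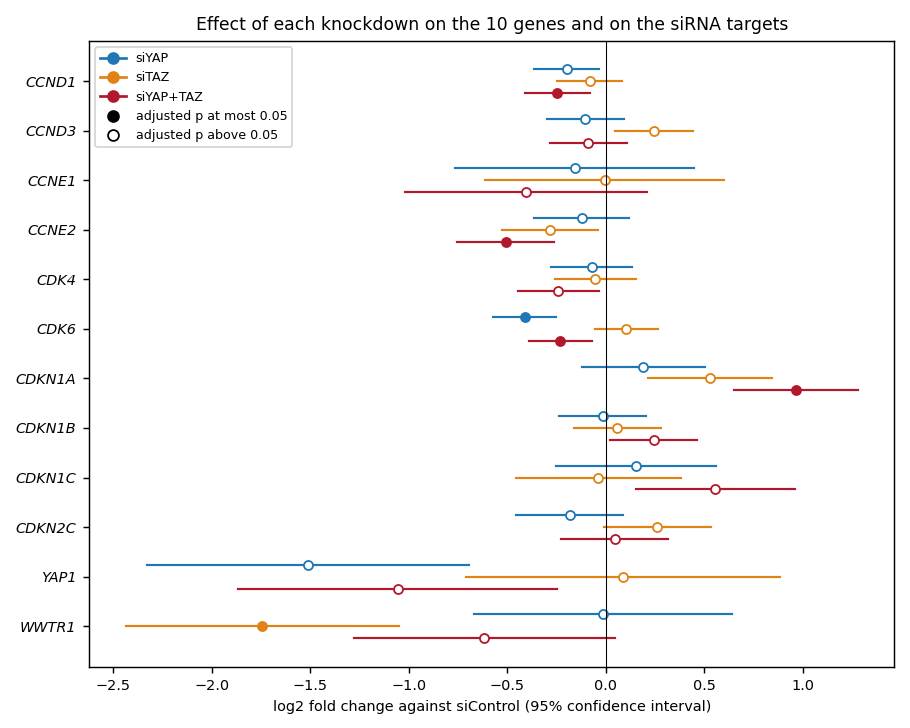
Points give the log2 fold change against siControl (horizontal axis) of each gene in siYAP, siTAZ and siYAP+TAZ, and lines the 95% confidence interval, with filled points for an adjusted p of at most 0.05. CDKN1A in siYAP+TAZ (0.97) lies farthest to the right, and CDK6 is filled in siYAP (-0.41) and siYAP+TAZ (-0.23) but lies at 0.10 in siTAZ.

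Direct comparisons between the knockdowns tested these contrasts. Residual WWTR1 RNA was higher in siYAP+TAZ than in siTAZ, by 1.13 on the log2 scale (SE 0.31, adjusted p = 0.0648). Its part in the differences below was not tested. CDKN1A was higher in siYAP+TAZ than in siYAP, by 0.77 on the log2 scale (SE 0.15, interval 0.46 to 1.09, adjusted p = 0.00679), with all 3 libraries above all siYAP libraries and with the call present without each library in turn. It was the only 1 of the 10 genes called in that comparison, where 5.13% of all genes were called. With the block, 5 of the 10 and 14.6% of all genes were called there, and the other 4 were CCNE2 (-0.39, adjusted p = 0.00479, and 0.0392 in DESeq2 without the block), CDK4 (-0.17, 0.0457), CDKN1B (0.26, 0.0163) and CDKN2C (0.22, 0.0362). Against siTAZ the CDKN1A difference was 0.44 (SE 0.15, interval 0.13 to 0.75, adjusted p = 0.102), which passed the limit in DESeq2 (0.0460), with library sizes unscaled (0.0491) and in a fit of the groups compared alone (0.0336). Between siYAP+TAZ and siTAZ 2 of the 10 genes were called, CDK6 with -0.33 (SE 0.076, adjusted p = 0.0151) and CCND3 with -0.33 (SE 0.094, adjusted p = 0.0445), against 5.44% of all genes. The CDK6 call was lost without siYAP+TAZ library 20 (0.0693), siTAZ library 24 (0.0852) or siTAZ library 29 (0.0538) and in a fit of the groups compared alone (0.0611). The CCND3 call was lost in 5 of 6 fits without a library (0.0770 to 0.214, the latter without siTAZ library 24), in limma-voom (0.0516), without robust estimation (0.0520) and in a fit of the groups compared alone (0.0788). Between siYAP and siTAZ only CDK6 was called, with a log2 fold change of -0.52 (SE 0.076, interval -0.68 to -0.36, adjusted p = 0.0108), against 0.642% of all genes. Every siYAP library lay below every siTAZ library for CDK6. The call was lost without siYAP library 18 (0.127) or 28 (0.0808), without siTAZ library 24 (0.0719) or 29 (0.0572), and in a fit of these groups alone (0.128), while the log2 fold change stayed between -0.60 and -0.42 over the 6 fits without a library.

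The interaction of siYAP and siTAZ measures departure from the sum of the single effects only if single and combined knockdowns lower each target equally. Every siYAP+TAZ library held more WWTR1 RNA than every siTAZ library. WWTR1 itself had an interaction of 1.14 (SE 0.43, interval 0.19 to 2.09, adjusted p = 0.755), and YAP1 of 0.37 (SE 0.51, adjusted p = 0.967). Unequal residual target RNA and a departure from additivity therefore cannot be told apart. None of the 10 genes had a called interaction, 0 of the 10 and 1104 of all genes had an unadjusted p under 0.05, and DESeq2 and limma-voom called none, against 0.0106% of all genes called. The interaction of CDKN1A was 0.25 on the log2 scale (SE 0.21, interval -0.20 to 0.69), so the interval held a departure from additivity of up to 0.69. Without single libraries it lay between 0.10 and 0.38. That of CDKN1C was 0.44 (SE 0.28, interval -0.14 to 1.02, 0.31 to 0.61 without single libraries) and that of CDK6 was 0.08 (SE 0.11, interval -0.15 to 0.30, -0.0034 to 0.15 without single libraries).

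Levels of different genes were compared per kilobase of the canonical transcript. In siControl the order of normalized counts per kilobase was CCND1 (5906 ± 293, SD, n = 3), CCND3 (3642 ± 54), CDKN2C (1952 ± 192), CDKN1A (1516 ± 255), CDK4 (1273 ± 120), CDKN1B (359 ± 56), CCNE1 (336 ± 119), CDK6 (301 ± 11), CCNE2 (164 ± 17) and CDKN1C (49.1 ± 12). The siControl libraries overlapped between CDKN1A and CDK4 and among CDKN1B, CCNE1 and CDK6. In siYAP+TAZ, CDKN1A rose to 2960 ± 190 per kilobase and stood above CDKN2C (2011 ± 343) and below CCND3 (3426 ± 171). The order of the other genes was that of siControl except that the means of CCNE1 (252 ± 51) and CDK6 (256 ± 6.6) changed places. The spreads of these genes met in both groups. The order depends on the length assumed. With the union of all annotated exons as the length, a choice made after seeing the data, siControl means ran CCND1 (5257), CCND3 (1281), CDKN1A (1071), CDK4 (767), CDKN2C (644), CDK6 (286), CCNE1 (266), CCNE2 (99.5), CDKN1B (93.5) and CDKN1C (35.1) per kilobase, and in siYAP+TAZ CDKN1A (2091) stood above CCND3 (1205).

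Shares within families were computed per library. CDKN1A made up 78.5% ± 5.3 of the summed CIP/KIP level per kilobase in siControl and 85.5% ± 1.3 in siYAP+TAZ, and the sum itself was 1924 ± 189 and 3458 ± 172 per kilobase. CDK6 made up 13.4% ± 0.71 of the sum of CDK2, CDK4 and CDK6 in siControl, 10.8% ± 0.65 in siYAP and 13.7% ± 0.87 in siYAP+TAZ, where CDK4 and CDK2 also stood lower. CCND1 made up 61.8% ± 1.5 of the D-type cyclins in siControl, 56.5% ± 3.6 in siTAZ and 59.2% ± 2.0 in siYAP+TAZ. The ratio of CDKN1A to CCND1 per kilobase was 0.256 ± 0.030 in siControl, 0.340 ± 0.082 in siYAP, 0.392 ± 0.049 in siTAZ and 0.596 ± 0.062 in siYAP+TAZ. These shares and ratios are descriptions and depend on the transcript length assumed. With the union of exons as the length, CDKN1A made up 89.0% and 92.7% of the CIP/KIP level in siControl and siYAP+TAZ.

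**Figure D3:**
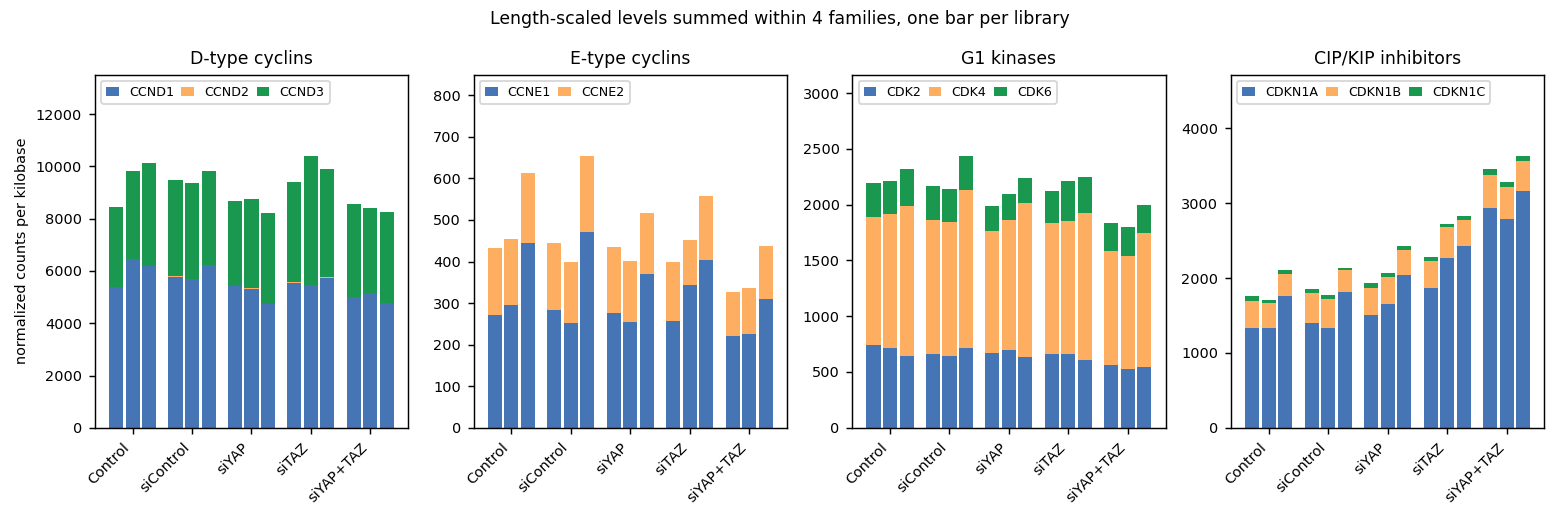
Each bar is 1 library and stacks the normalized counts per kilobase (vertical axis, from 0) of the genes of a family, with 3 libraries per group. The CIP/KIP sum averages 1924 in siControl and 3458 in siYAP+TAZ, and most of the difference is CDKN1A.

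The genes around these 10 were grouped by function. Over all 18858 genes, 8.39% were called lower and 9.97% higher in siYAP+TAZ, and 9537 had a log2 fold change below 0. Among genes kept by filterByExpr 23.7% were called, in either direction. In siYAP 86 of all genes were called lower, and in siTAZ 131 lower and 252 higher. With the block, 28.6% of all genes were called in siYAP+TAZ and 6.1% in siYAP. In siYAP+TAZ, 17 of 20 E2F target genes of S phase entry were called lower and none higher, with a median log2 fold change of -0.38. CDC6 and ORC1, which load replication origins, fell by 0.49 each, MCM2, a subunit of the replicative helicase, fell by 0.48, and UHRF1 fell by 0.48. All 20 genes had a log2 fold change below 0, and between 12 and 17 were called when 1 library was left out. In siYAP 1 of these 20 genes was called lower (8 with the block and 0 to 3 in other settings), with a median of -0.17. It was CDC45 (-0.33, adjusted p = 0.0389, but 0.0921 to 0.148 over the 6 fits without a library and 0.0573 in a fit of the groups compared alone). In siTAZ none was called (0 to 1 higher in other settings and without single libraries), with a median of -0.01. Against siTAZ itself, 17 of the 20 were called lower in siYAP+TAZ (12 to 17 without single libraries). Against siYAP 3 were called lower (1 to 3 without single libraries, 2 to 5 in other settings and 9 with the block). Of all 18858 genes, 448 were called lower against siTAZ and 321 against siYAP. With the block, 14.6% of all genes were called against siYAP, in either direction. Of 20 genes of G2 and M phase, 5 were called lower in siYAP+TAZ (3 to 5 without single libraries and 8 with the block), with a median of -0.20, and all 20 had a log2 fold change below 0. CDC20 fell by 0.41, AURKB by 0.36, CCNB1 by 0.29 and TPX2 by 0.27 on the log2 scale (for TPX2 an adjusted p of 0.0516 without siYAP+TAZ library 20), while MKI67 differed by -0.13 (adjusted p = 0.192).

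Some regulators of the kinases and of their inhibitors were also called lower. Of 8 genes that activate or restrain CDKs, 3 were called lower in siYAP+TAZ and none higher, with a median log2 fold change of -0.21. Of all genes, 8.39% were called lower there and 9.97% higher. CDC25A, the phosphatase that activates CDK2, fell by 0.74 (adjusted p = 2.53e-05), the inhibitory kinase gene PKMYT1 fell by 0.49, and CCNH, the cyclin of the CDK-activating kinase, fell by 0.34. The next gene in order, MNAT1, differed by -0.27 (adjusted p = 0.0821, or 0.0281 with the block) and was called in 1 of 15 other settings. In siYAP 1 of the 8 genes was called lower, PKMYT1 (-0.32, adjusted p = 0.0490). That count was 0 to 1 in other settings and 3 with the block. In siTAZ none was called in the main fit. Of 12 genes of cyclin and inhibitor turnover, 5 were called lower (2 to 4 without single libraries) and none higher, against the same shares of all genes. SKP2, which directs p27 to degradation, fell by 0.52, its cofactor CKS1B by 0.31, DTL, which directs p21 to degradation in S phase, by 0.37, and CUL1 by 0.20. Over 15 settings other than the block, CKS1B was called in 12 and CUL1 in 7 (adjusted p up to 0.0705 and 0.154), while SKP2 and DTL were called in all. Of 19 RB family, E2F and DREAM subunit genes, 6 were called lower and 1 higher (7 lower and 2 higher with the block). The same shares of all genes apply, and with the block 28.6% were called in either direction. E2F3 and TFDP1 fell by 0.31 and 0.32, E2F4 fell by 0.26 and RBL1 by 0.29, and RB1 itself differed by 0.10 (adjusted p = 0.646). The gene called higher was E2F7 (0.28, adjusted p = 0.0482). Without single libraries 1 to 6 genes of this list were called lower and none higher. In siYAP 1 gene of the list was called lower and none higher, and in siTAZ 2 were called higher and none lower. Of the same 15 settings E2F4 was called in 11, and TFDP1 and RBL1 in 10 each (adjusted p up to 0.113 for E2F4, 0.130 for TFDP1 and 0.160 for RBL1).

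Of all genes, 9.97% were called higher in siYAP+TAZ and 8.39% lower, and 28.6% in either direction with the block. Of 15 transcription factors known to act on the 10 genes, 4 were called higher in siYAP+TAZ and none lower (1 to 4 higher without single libraries, 5 higher and 1 lower with the block). They were FOXO4 (1.23), FOXO1 (0.84), KLF4 (0.38) and SMAD3 (0.32), and of the 15 settings FOXO4 was called in all, SMAD3 in 12, and FOXO1 and KLF4 in 8 each (adjusted p up to 0.177 for FOXO1, 0.174 for KLF4 and 0.116 for SMAD3). The log2 fold change ranged from 0.53 to 1.12 for FOXO1 and from 0.29 to 0.53 for KLF4. MYC differed by -0.38 (adjusted p = 0.246, or 2.30e-05 with the block).

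**Figure D4:**
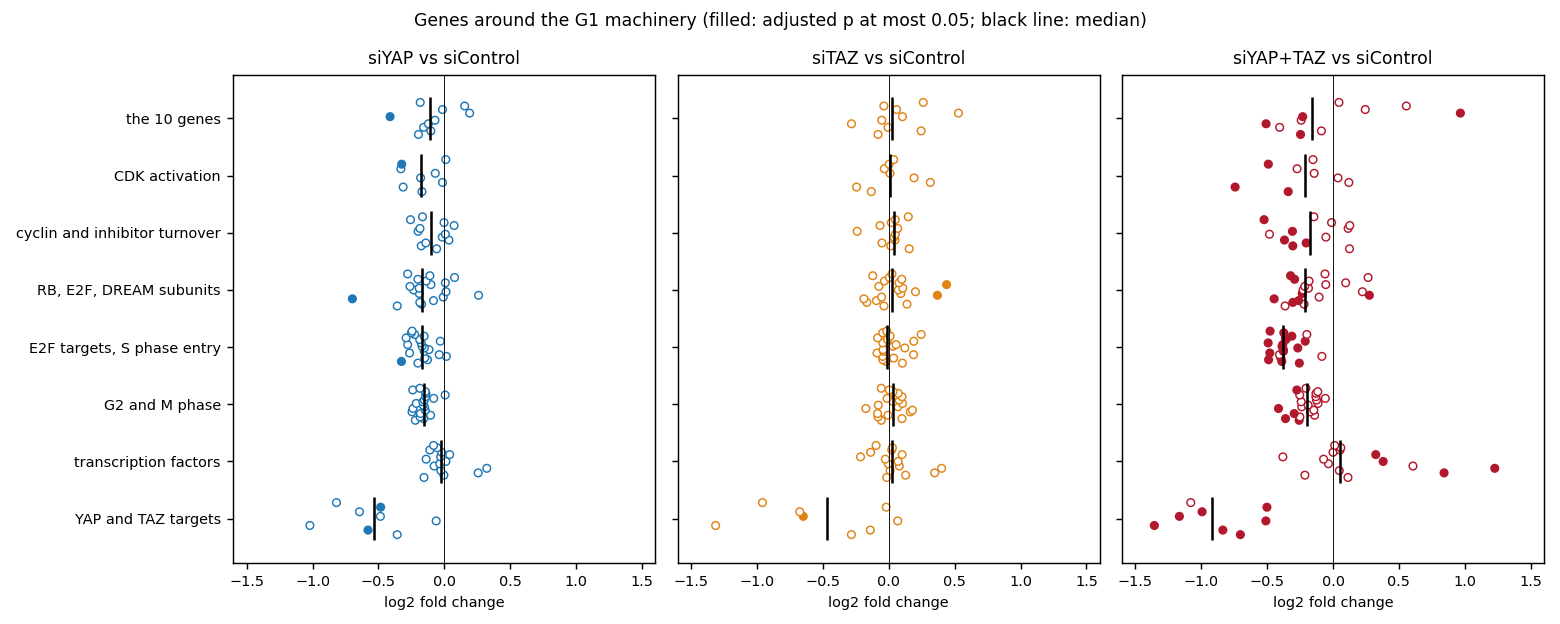
Points are genes, placed by their log2 fold change against siControl (horizontal axis) in siYAP, siTAZ and siYAP+TAZ, in rows by list, with filled points for an adjusted p of at most 0.05 and a black line for the median of the list. In siYAP+TAZ all 20 E2F target genes of S phase entry lie below 0, with a median of -0.38, and in siTAZ their median is -0.01.

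The genes whose pattern over the 15 libraries was most like that of a member were sought among the 10640 genes whose mean reached 100 normalized counts, by Pearson correlation of log2 CPM, as a description over libraries that share treatment groups. For CDKN1A they were PDLIM4 (r = 0.977), CAVIN3 (0.972) and MOSPD3 (0.964). For CCNE2 they were SRSF7 (0.933), WDR75 (0.932) and POLR3K (0.926), and for CCND1 they were SNX24 (0.921), PM20D2 (0.899) and SPDL1 (0.898).

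Some of these genes share exonic bases with a gene on the opposite strand, and whether the counting used strand is not given in the sources used here. In GENCODE release 44 the overlap covered 44.25% of the exonic bases of CDK4 (with TSPAN31), 37.14% of CCNE2 (with INTS8 and an unnamed gene together), 20.44% of CDKN2C and 10.44% of CCND1 (with LTO1). Reads of such partners cannot be told apart without strand. In siYAP+TAZ against siControl the log2 fold change was 0.27 for TSPAN31 (adjusted p = 0.166), 0.11 for INTS8 (adjusted p = 0.499) and -0.43 for LTO1 (adjusted p = 0.00252). The overlap was 4.87% for CDKN1A and under 1% for CDK6 and CCND3, and CCNE1, CDKN1B and CDKN1C had none. The gene positions on GRCh38 were chr11:69641156-69654474 for CCND1, chr6:41934934-42050357 for CCND3, chr19:29811991-29824312 for CCNE1, chr8:94879770-94896678 for CCNE2, chr12:57747727-57756013 for CDK4, chr7:92604921-92836573 for CDK6, chr6:36676460-36687337 for CDKN1A, chr12:12685498-12722369 for CDKN1B, chr11:2883213-2885775 for CDKN1C and chr1:50960745-50974634 for CDKN2C.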

How the data were processed

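RNA of MDA-MB-231 cells was sequenced in 15 libraries, 3 in each of 5 groups. The authors aligned the reads to GRCh38 with STAR 2.4.2a and deposited read counts per gene, with genes of at least 5 reads in at least 1 library. From these counts, edgeR 4.0.16 in R 4.3.3 was used with TMM scaling, a robust quasi-likelihood fit of all 15 libraries with 1 coefficient per group, and Benjamini-Hochberg adjustment over the 18858 genes. A gene was called at an adjusted p of at most 0.05. Confidence intervals (95%) come from the same fit. Total counts per library set the precision of low values such as those of CDKN1C. DESeq2 1.42.0, limma 3.58.1 (voom), other filters, other scalings, fits of the compared groups alone, Control as the reference, a block by library number, and fits without each library were tried. The labels share no replicate number. The experiment was repeated independently, and the libraries of each repeat (16 to 20, 21 to 25 and 26 to 30) were inferred from the order of their numbers. Deviations from the group means correlated by 0.24 to 0.698 within a run among Control, siControl, siYAP and siYAP+TAZ, so in comparisons of those groups the block is printed beside gene calls that it changes and counts that it moves by over 1.5 times. The block is also printed beside the calls of CCND1 and CDK6. These choices were made after the block's calls had been seen. Pairs with siTAZ library 24 did not correlate, though those with siTAZ libraries 19 and 29 did, so comparisons with siTAZ have the block only among the dependences on processing. The code was tested on simulated data. The 10 genes and the gene lists were chosen with earlier results of these data known. Genes are named as the 10 members, the siRNA targets, up to 4 genes of each list with the smallest p in siYAP+TAZ against siControl, list genes called with a log2 fold change of 1 or more in either direction, all remaining D cyclin, CDK2 and INK4 genes, markers, and the 3 genes most like CDKN1A, CCNE2 and CCND1. CDC45, MKI67, RB1, E2F7 and MYC were named after their values were seen. Gene and transcript coordinates come from GENCODE release 44 on GRCh38.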

Additional observations from a re-analysis of the deposited data

How the results depend on the processing

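Outcomes were counted for the 10 genes in the 3 comparisons of a knockdown with siControl and for the 4 called direct tests between knockdowns. Of 336 such outcomes under other settings, 304 kept direction and side of the limit, 16 gained a call, 8 lost one and 8 changed sign. Without single libraries, where 1 group keeps 2, 204 outcomes split into 157, 4, 28 and 15. Direct tests not called in the main fit gained 17 calls in 234 outcomes under other settings and 2 in 156 without single libraries. The calls of CDKN1A and CCNE2 in siYAP+TAZ were present in every setting. Members called in siYAP+TAZ against siControl (4, with 3464 of all genes in the main fit) were 2 to 3 without single libraries. In siYAP (1) they were 0 to 1, with 27 to 137 of all genes (176), 400 by DESeq2 and 276 against Control. In siTAZ (0) they were 1 by DESeq2, 1 by library size alone, 1 against Control and 0 to 1 without single libraries. All genes in siTAZ (383) were 802 by DESeq2, 147 in the compared groups alone, 642 against Control and 68 to 901 without single libraries. For siYAP+TAZ against siYAP, DESeq2 called 2 members (1), and 399 to 678 of all genes (968) were called without single libraries. Against siTAZ, 1 member (2) was called by voom, 1 without robust estimation, 1 in the compared groups alone and 0 to 2 without single libraries, with 603 of all genes (1025) in the compared groups alone and 465 to 949 without single libraries. Between siYAP and siTAZ, DESeq2 called 2 members (1), the compared groups alone 0, and fits without single libraries 0 to 3. All genes there (121) were 354 by DESeq2, 78 by library size alone, 1 in the compared groups alone and 0 to 417 without single libraries. The interaction (2 genes) gave 21 by DESeq2, 0 with at least 10 reads, 0 with filterByExpr, 0 by library size alone, 0 without robust estimation, 1 in the compared groups alone and 0 to 5 without single libraries. The cause was not tested.

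Values near 0 changed sign. CDKN1B in siYAP (-0.01) was 0.0014 with at least 10 reads, 0.0026 with filterByExpr, 0.032 by library size alone and 0.10 against Control. CCNE1 in siTAZ (-0.01) was 0.020 by voom, 4.7e-05 with at least 10 reads, 0.013 by library size alone and 0.020 with the block. Without single libraries CDKN2C in siYAP+TAZ ranged from -0.10 to 0.13. In siYAP CCNE1 ranged from -0.33 to 0.16, CDK4 from -0.17 to 0.0090, CDKN1B from -0.14 to 0.073 and CDKN1C from -0.023 to 0.29. In siTAZ CCNE1 ranged from -0.18 to 0.32, CDK4 from -0.11 to 0.028, CDKN1B from -0.062 to 0.13 and CDKN1C from -0.21 to 0.094. With the union of annotated exons as length, chosen after seeing the data, CCND1 was 80.3% and 78.6% of D-type cyclins in siControl and siYAP+TAZ (61.8% and 59.2%), CDK6 19.9% and 20.3% of the kinases (13.4% and 13.7%), CDK4 53.1% and 53.6% (56.6% and 57.2%), and CDKN1A 89.0% and 92.7% of CIP/KIP (78.5% and 85.5%).

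With the replicate block by run of library numbers, 8 members and 5389 of all genes were called in siYAP+TAZ against siControl, 1151 genes in siYAP, 2 members (CDKN1A, adjusted p = 8.01e-06, and CDKN2C, 0.0158) and 1942 genes in siTAZ, and 1 gene between siControl and Control. The block gave 5 members and 2758 genes for siYAP+TAZ against siYAP, 7 members (CDKN1A, adjusted p = 4.46e-05, CDK6, CCND3, CCNE1, CDK4, CDKN1C and CDKN2C) and 2795 genes against siTAZ, 4 members (CDK6, CDKN2C, CDKN1A and CCND3) and 1380 genes between siYAP and siTAZ, and 122 genes for the interaction. Of the lists in siTAZ, the block called 4 of the 8 YAP and TAZ target genes lower (1 in the main fit, 1 to 3 in other settings) and 2 of the 20 E2F target genes higher (0 in the main fit). Within their runs siTAZ libraries 19 and 29 correlated with the other groups by 0.421 to 0.725, and library 24 by -0.0656 to 0.0259, so not every pair with siTAZ deviated together. All 3 are in this fit. Beyond the calls given beside the results, the block changed no call of the 10 genes in comparisons without siTAZ.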
